A study of Mus musculus with 30 samples.

Results

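Ribosomal protein genes were followed across 30 abdominal aorta libraries of C57BL/6 mice, all wild-type. The members were protein-coding genes whose symbol begins with Rpl or Rps followed by a digit, together with Rplp0, Rplp1, Rplp2 and Rpsa. The 10 S6 kinase genes, 6 genes annotated as protein-coding but named as pseudogenes, and 290 genes of a pseudogene biotype were left out. This gave 86 genes, 52 of the large and 34 of the small ribosomal subunit by symbol. Of these, 84 had a value (50 large, 34 small), among 14379 genes with a value in all. All 84 passed the filter on low values, while Rpl10l and Rpl39l had no transcript listed in any library. The set of 84 held 77 genes of the standard cytosolic ribosome. The rest were the paralogs Rpl3l, Rpl22l1, Rpl36al and Rps27l, the retrogene Rps27rt, and Rps19bp1 and Rpl7l1, which fit the symbols but encode a partner of Rps19 and a factor of ribosome assembly.

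There were 6 groups of 5 libraries. Control mice received saline, and the AngII group received angiotensin II, a peptide hormone that constricts arteries, infused at 500 ng/kg/min for 28 days. The other groups received the same infusion plus a compound. These were the plant alkaloid ethoxysanguinarine (AngII+ETH), the flavonoid glucuronide baicalin (AngII+BAI) or the phenolic glucoside gastrodin (AngII+GAS) at 5 mg/kg/day, or valsartan (AngII+VAL), a blocker of the type 1 angiotensin receptor, at 10.4 mg/kg/day. The labels used here state neither age nor sex. By its title, the series concerns treatments that reduce the high blood pressure that the infusion causes. Total RNA was sequenced after ribosomal RNA had been removed, with a kit that does not mark strand. Values are FPKM, fragments divided by transcript length and library size, summed over the annotated transcripts of a gene. The 10 smooth muscle markers checked had a value, and their mean log2(FPKM + 1) was 6.27 to 8.79 per library. The low values were whole multiples of 1 read and gave 69.9 to 80.6 megareads (M) per library, of which 679390 to 1868100 lay in the 84 genes, so counting error was small beside the spread between libraries. The libraries were numbered in the order of their records. Nothing beyond animal numbers in the titles says how they were prepared, so p-values measure the spread between these libraries.

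A ribosome joins a small subunit, which holds the mRNA and decodes it, to a large subunit, which forms the peptide bond and carries the tunnel through which the new chain leaves. Each subunit is built from ribosomal RNA and a fixed set of proteins, and nearly all of these proteins are present at a single copy per ribosome, with the stalk proteins Rplp1 and Rplp2 as dimers. The mRNAs of these proteins are among the most abundant in most tissues, and their genes have short transcripts whose 5′ ends start at a C followed by a run of pyrimidines. That run, the terminal oligopyrimidine tract, lets mTORC1, a kinase complex that senses growth signals and nutrients, control the translation of the mRNAs through the protein Larp1. In arteries, ribosome production is known to rise when smooth muscle cells grow or divide.

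The annotated starts were searched for this feature. RefSeq start sites of GRCm38.p6 were matched by symbol for 66 of the 86 members. The start base was C and opened a run of at least 5 pyrimidines in 14 of the 66 (21.2%), against 3.01% of 27025 genes with a promoter. A gene with several annotated starts was counted if any of them matched. The genes below were chosen because the results turn on them or because they show a tract. Each line gives 40 bases before the start base and 15 from it onward, on the gene's strand, and capitals mark the longest run of pyrimidines that touches the 10 bases on either side of the annotated start.
Rps6, chr4:86857353-86857407, minus strand: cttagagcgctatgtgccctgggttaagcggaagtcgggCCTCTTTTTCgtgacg
Rplp2, chr7:141447611-141447665, plus strand: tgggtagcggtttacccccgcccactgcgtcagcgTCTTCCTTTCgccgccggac
Rps18, chr17:33955651-33955705, minus strand: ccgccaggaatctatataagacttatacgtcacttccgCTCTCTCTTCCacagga
Rpl38, chr11:114668540-114668594, plus strand: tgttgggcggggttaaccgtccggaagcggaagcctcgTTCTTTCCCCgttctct
Rpl15, chr14:18270972-18271026, minus strand: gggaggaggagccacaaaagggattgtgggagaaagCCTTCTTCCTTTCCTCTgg
Rps27, chr3:90213634-90213688, minus strand: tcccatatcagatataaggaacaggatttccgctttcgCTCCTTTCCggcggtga
Rps27rt, chr9:114982725-114982779, minus strand: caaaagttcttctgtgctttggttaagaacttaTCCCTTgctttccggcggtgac
Rpl39, chrX:37085208-37085262, minus strand: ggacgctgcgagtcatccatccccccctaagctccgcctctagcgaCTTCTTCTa
Rps28, chr17:33824548-33824602, minus strand: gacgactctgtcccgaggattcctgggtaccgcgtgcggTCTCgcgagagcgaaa
Rpl3l, chr17:24727786-24727840, plus strand: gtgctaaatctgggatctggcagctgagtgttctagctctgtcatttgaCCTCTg
In the lines for Rps6, Rplp2, Rps18, Rpl38, Rpl15, Rps27 and Rps28 the run covers the annotated start. Rpl3l, the paralog made in striated muscle, has a short run downstream of it. In Rps27rt the capitals end just before it, and the start base is a C that opens a run of the same length, 6 pyrimidines, so it is among the 14. Of the genes printed, Rps6, Rplp2, Rps18, Rpl38, Rpl15 and Rps27 are also among the 14, and Rpl39, Rps28 and Rpl3l are not.

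Over 250 bases before to 50 after the start, on both strands, the ETS motif CCGGAAG lay in 39.4% of the 66 members and 9.93% of all genes with a promoter, again counting any start of a gene. The GC box GGGCGG lay in 62.1% against 38.2%, and the YY1 core AAGATGG in 15.2% against 7.28%. The TATA box TATAAA lay in 10.6% against 15.7%. A run of at least 8 pyrimidines within 10 bases of the start was present in 43.9% against 15.8%. The GC box, the ETS motif and the pyrimidine runs were thus found in a larger share of members than of all genes with a promoter, and the TATA box in a smaller share. These matches describe letters in the window and say nothing of factors bound there. The genes are scattered over the genome, with chromosome 7 holding 14 members and chromosomes 9 and 17 holding 8 each.

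The members were abundant in the aorta, with means over 30 libraries from 4.34 to 499.6 FPKM, a median of 148, and 60 of 84 at 100 FPKM or more. Per length, the median was 139 FPKM over the 50 large subunit genes and 180 FPKM over the 34 small subunit genes. The highest were the P stalk proteins of the large subunit, which recruit the elongation factors. Rplp1 averaged 499.6 FPKM and Rplp0, its anchor on the ribosome, 462 FPKM. Rpl23a, at the mouth of the exit tunnel, averaged 396 FPKM. In the small subunit Rps3a1 (399 FPKM), Rps2 (371 FPKM), which lines the mRNA entry, and Rps15 (336 FPKM) were highest. The lowest large subunit genes were Rpl29 (4.34 FPKM), Rpl3l (5.41 FPKM) and Rpl17 (8.52 FPKM), and the lowest in the small subunit Rps19bp1 (10.3 FPKM), Rps15a (21 FPKM) and Rps20 (41.1 FPKM). The main coding transcripts of Rpl29 are outside the list shared by all groups, and most FPKM of Rpl17 was listed under its copies, as described further on, so these values may not hold the whole output of either gene.

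Rplp0 is given library by library as the scaffold of the stalk. In Control libraries 1 to 5 it was at 511, 355, 407, 372 and 437 FPKM, in AngII at 387, 490.3, 558, 391 and 542 FPKM and in AngII+ETH at 430.2, 391, 384, 459 and 409.5 FPKM. It was at 685, 386, 817, 398 and 722 FPKM in AngII+BAI, 334, 271, 473, 421 and 445 FPKM in AngII+GAS and 424, 443, 496, 479 and 527 FPKM in AngII+VAL. All groups overlapped, and the highest values were in AngII+BAI libraries 3, 5 and 1. Most members had their highest value in library 1, so Rplp0 is an exception in this. Rplp1, in the same stalk, was at 1413, 439, 804, 539 and 514 FPKM in AngII+BAI, and at 372 to 545 FPKM in Control, 382 to 758 FPKM in AngII, 361 to 544 FPKM in AngII+ETH, 314 to 545 FPKM in AngII+GAS and 298 to 445 FPKM in AngII+VAL. Its partner Rplp2 was also highest in AngII+BAI library 1, at 385 FPKM, and otherwise between 71.8 and 196 FPKM.

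In the AngII+BAI group 2 libraries therefore stand apart and are named before the comparisons. The 84 genes summed to 32073 FPKM in AngII+BAI library 1 and 23098 FPKM in library 3, against 10556 to 18259 FPKM in the other 28. This was 5.96% and 5.02% of the summed FPKM of all genes, against 2.26% to 4.69%. Of the 84 members, 71 had their highest value of all libraries in AngII+BAI library 1 and 7 in library 3, while these libraries held the highest value of 17.8% and 17.2% of the 13223 genes tested. A member was at a median of 2.36 times its median over the other libraries in library 1, and at 1.71 times in library 3. All tested genes had a median ratio of 1.07 in library 1. The lowest values were spread over AngII+GAS library 2 (32 members), AngII+VAL library 1 (16) and AngII+GAS library 4 (14).

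**Figure D1:**
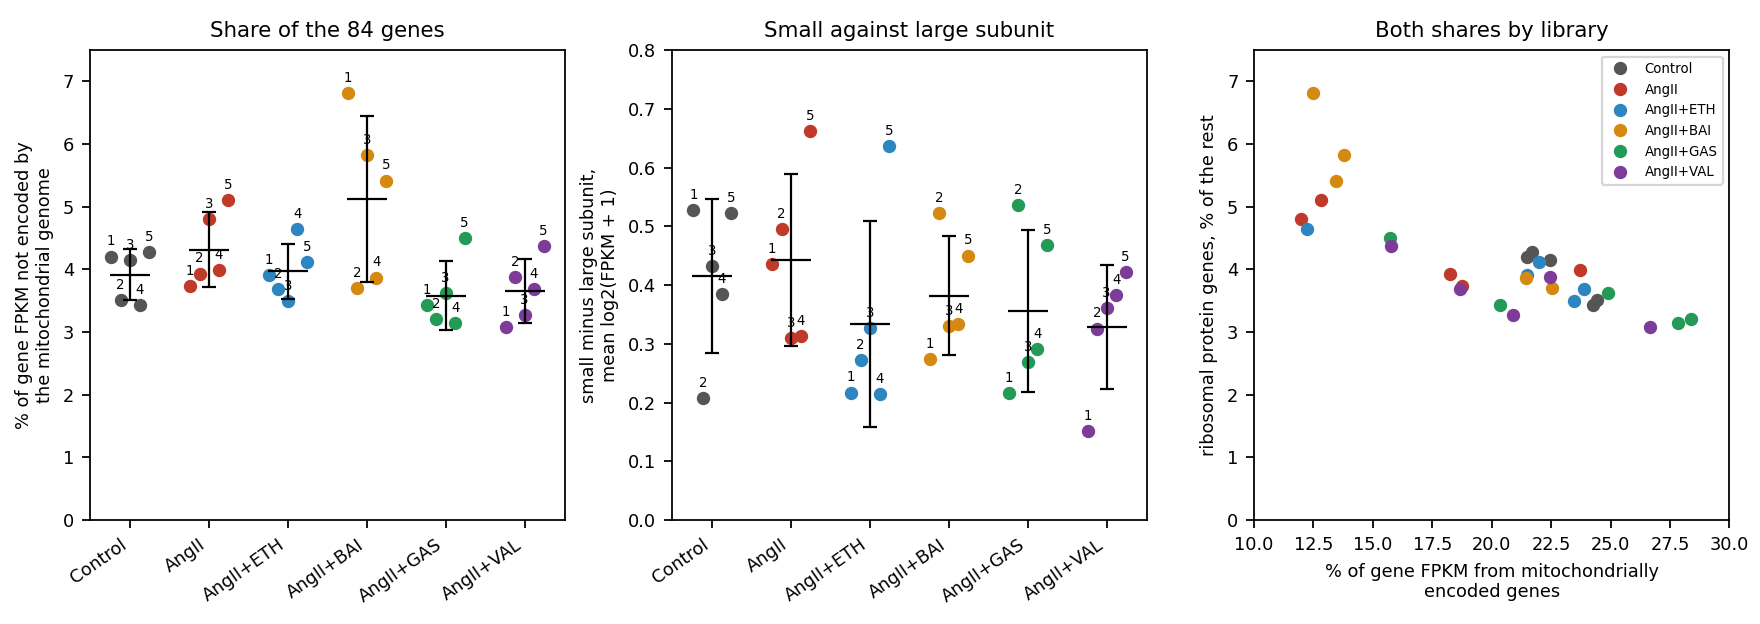
Left, summed FPKM of the 84 ribosomal protein genes as a percent of the FPKM of all genes not encoded in mitochondria, by group, with each library as a numbered point and the mean ± SD of 5 libraries. Middle, mean log2(FPKM + 1) of small subunit genes minus that of large subunit genes. Right, the share plotted against the percent of gene FPKM that is mitochondrially encoded. AngII+BAI libraries 1, 3 and 5 have the highest shares (6.81%, 5.82% and 5.42%), the subunit difference overlaps between all groups, and the 8 libraries under 16% mitochondrial FPKM hold the 8 highest shares.

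Mitochondrially encoded transcripts took 12% to 28.4% of gene FPKM and tended to be low where the ribosomal share was high. Leaving them out of the total, the 84 genes took 3.08% to 6.81%. In the 8 libraries where mitochondrial transcripts took under 16%, a line drawn after the values were seen, the share was 4.38% to 6.81%, and in the other 22 it was 3.08% to 4.28%. The 8 were AngII+BAI libraries 1, 3 and 5, AngII libraries 3 and 5, and 1 library each of AngII+ETH, AngII+GAS and AngII+VAL. Among them, AngII+BAI libraries were at 6.81%, 5.82% and 5.42% and the AngII libraries at 4.81% and 5.11%. Among the others, AngII+BAI libraries 2 and 4 were at 3.70% and 3.87% and AngII libraries 1, 2 and 4 at 3.74%, 3.93% and 3.99%. Few libraries of either group fell on each side of this line, so these values are a description only. Cell type markers differed between the AngII+BAI libraries as well. The mean log2(FPKM + 1) of 10 smooth muscle markers was 8.52, 6.27 and 6.80 in libraries 1, 3 and 5, that of 10 macrophage markers 4.98, 6.99 and 6.39, and that of the cell division markers 2.45, 3.65 and 3.30. In all of libraries 1, 3 and 5 the cell division level was above every library of the other groups, whose highest was 2.34, in AngII. Library 1 had smooth muscle markers at the level of other groups. Libraries 3 and 5 had the lowest smooth muscle and highest macrophage levels of their group. The part of mitochondrial RNA and of these cells in the results was not tested. In bulk tissue, fewer cells of a type and less RNA per cell cannot be told apart.

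Angiotensin II infusion alone moved no member past the threshold. Comparing AngII with Control, limma on log2(FPKM + 1) called 0 of 84 at an adjusted p under 0.05, and 0% of all 13223 genes in either direction. At an unadjusted p under 0.05, 0 of 84 were higher and 0 lower, against 9.51% of all genes higher and 1.69% lower. The median log2 fold change of the members was 0.13, beside 0.11 for all genes tested, and 69 of 84 were above 0, beside 66.6% of all genes. With TMM factors, which align the bulk of genes between libraries, the median was 0.003 and 42 of 84 were above 0. Such factors take out a shift that most genes share, whatever its source, and the source was not tested. The members with the smallest p were Rpl17 at 1.64 ± 0.99 (adjusted p = 0.561), Rpl6 at 0.28 ± 0.18 (adjusted p = 0.574) and Rpl23 at 0.46 ± 0.33 (adjusted p = 0.631) on the higher side. On the lower side they were Rpl3l at -1.28 ± 0.83 (adjusted p = 0.596), Rps15 at -0.43 ± 0.28 (adjusted p = 0.601) and Rpl26 at -0.56 ± 0.45 (adjusted p = 0.676), each a log2 fold change ± SE. Rpl6, a large subunit protein, was at 227 ± 25.8 FPKM in AngII and 187 ± 21.4 FPKM in Control (SD, n = 5 each).

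The 3 plant compounds and valsartan were each compared with AngII, which all these comparisons share as reference. For ethoxysanguinarine the median change of the members was -0.11, beside -0.09 for all genes, with 17 of 84 above 0, beside 31% of all genes. No member was called (0% of all genes in either direction), and 2 of 84 were lower at an unadjusted p under 0.05 (2.38% against 2.97%). These were Rps27a and Rps27rt, both genes with near-identical copies. Rps27a makes ubiquitin fused to a ribosomal protein and was at 3.25, 5.86, 11.5, 4.63 and 142 FPKM in AngII+ETH and 45.6, 153, 80.5, 125 and 93.7 FPKM in AngII. The groups overlapped through AngII+ETH library 5 (log2 fold change -2.91 ± 0.80 (SE), adjusted p = 0.994). Rps27rt had a log2 fold change of -1.31 ± 0.57 (adjusted p = 0.994), Rpl17 of -1.70 ± 0.99 (adjusted p = 0.994), and on the higher side Rpl7a of 1.43 ± 1.03 (adjusted p = 0.994), Rps18 of 0.33 ± 0.26 (adjusted p = 0.994) and Rpl23 of 0.40 ± 0.33 (adjusted p = 0.994).

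AngII+GAS had the lowest group mean of the members, 6.62 ± 0.23 in mean log2(FPKM + 1) per library, beside 6.91 ± 0.19 in AngII and 6.80 ± 0.17 in Control (SD, n = 5 each). The median change against AngII was -0.29, beside -0.17 for all genes, and 5 of 84 were above 0, beside 26.3% of all genes. None of the 84 was called, against 0.0151% of all genes lower and 0% higher. At an unadjusted p under 0.05, 4 were lower (4.76% against 12.4% of all genes) and 1 was higher (1.19% against 1.23%). With TMM factors the median was -0.10, beside -0.02 for all genes. Rps7, a small subunit protein that also binds the p53 regulator Mdm2, was at 155, 162, 205, 162 and 150.3 FPKM in AngII+GAS and 225, 206, 263, 217 and 304 FPKM in AngII. These groups did not overlap (1 member lower without overlap, or 1.19%, against 2.21% of all genes), by a gap of 205 to 206 FPKM (log2 fold change -0.54 ± 0.19 (SE), adjusted p = 0.237). Rpl22l1, the paralog of Rpl22, was at 27.5 ± 11.2 against 45.6 ± 13.8 FPKM (SD, n = 5 each), with a log2 fold change of -0.76 ± 0.27 (adjusted p = 0.243), and Rps27a had -2.05 ± 0.80 (adjusted p = 0.262). On the higher side were Rpl26 with 1.01 ± 0.45 (adjusted p = 0.319), Rpl21 with 0.23 ± 0.26 (adjusted p = 0.691) and Rpl29 with 0.46 ± 1.01 (adjusted p = 0.856).

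For valsartan the median change against AngII was -0.21, beside -0.12 for all genes, and 16 of 84 were above 0, beside 30.6% of all genes. None was called (0% of all genes in either direction). Without adjustment 13 were lower (15.5% against 9.02% of all genes) and 1 was higher (1.19% against 1.78%) at p under 0.05. Between these groups 3 members were lower without overlap (3.57%, against 2.42% of all genes), namely Rps29, Rpl36 and Rpl37, and Rpl3l was higher without overlap (1.19% against 0.537%). With TMM factors the median was -0.06 with 33 of 84 above 0. Rps29, a small zinc-binding protein of the 40S head, was at 167, 187, 159, 159 and 189 FPKM in AngII+VAL and 214, 259, 329, 342 and 508 FPKM in AngII (log2 fold change -0.88 ± 0.23 (SE), adjusted p = 0.141). Control was at 359, 266, 339, 224 and 321 FPKM, AngII+ETH at 291, 266, 241, 326 and 329.6 FPKM, AngII+GAS at 322, 208, 279.8, 201 and 313 FPKM and AngII+BAI at 668, 276, 490.2, 334 and 269 FPKM. Every AngII+VAL library was below every library of the other 5 groups. Against Control the log2 fold change was -0.79 ± 0.23 (adjusted p = 0.795). Rps28 followed at -0.81 ± 0.24 (adjusted p = 0.208), and Rps27a at -2.36 ± 0.80 (adjusted p = 0.272). On the higher side, beside Rpl3l, were Rpl26 at 0.79 ± 0.45 (adjusted p = 0.542) and Rpl23 at 0.53 ± 0.33 (adjusted p = 0.577).

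Beside Control, the groups given ethoxysanguinarine, gastrodin and valsartan held no member past the threshold. The median change was 0.01 for AngII+ETH, beside 0.02 for all genes, and limma called 0 of 84 (0% of all genes in either direction), with 1 higher and 1 lower at an unadjusted p under 0.05 (1.19% each, against 3.27% and 1.91% of all genes). It was -0.16 for AngII+GAS, beside -0.05, with 0 called (0% of all genes higher, 0.00756% lower) and 0 in either direction at an unadjusted p under 0.05 (1.08% higher and 2.62% lower over all genes). For AngII+VAL it was -0.10, beside -0.01, with 0 called (0% of all genes in either direction), and 2 higher and 5 lower at an unadjusted p under 0.05 (2.38% and 5.95%, against 1.62% and 2.22% of all genes). Rplp2, Rps21 and Rps28 joined Rps29 in lying below Control without overlap (4.76% of members against 1.15% of all genes). Rplp2 was at 93.7, 107, 95.7, 104 and 109 FPKM in AngII+VAL and 132, 119, 138, 121 and 132 FPKM in Control (log2 fold change -0.33 ± 0.25 (SE), adjusted p = 1). Rpl23, a large subunit protein, lay above Control without overlap in AngII+VAL (1.19% against 0.461% of all genes) and in AngII+ETH (1.19% against 1.29%). Its mean was 73.6 ± 27.9 FPKM and 66.1 ± 22.2 FPKM, against 34.5 ± 3.84 FPKM in Control (SD, n = 5 each). A gene that shares sequence with Rpl23 and was not added to it is named further on.

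In AngII+VAL the estimates were lower for short members than for long ones. The weighted transcript length of the members had a median of 813 bases, against 2566 bases over all genes tested. In AngII+VAL against AngII the 21 shortest members had a median change of -0.36 and the 21 longest of -0.16. The Spearman correlation of length with change over the 84 members was 0.27 in that comparison and 0.35 against Control. It was -0.05 and 0.03 over all genes. The 676 tested genes under 584 bases, the upper limit of the 21 shortest members and with those members included, had a median change of -0.18 against AngII, beside -0.12 for all genes, and of -0.13 against Control, beside -0.01. In the other pairs that share the AngII+VAL libraries the correlation had the same sense. It was -0.37 in AngII+ETH against AngII+VAL, -0.41 in AngII+BAI against AngII+VAL and -0.31 in AngII+GAS against AngII+VAL, beside -0.01, -0.25 and -0.01 over all genes. Rpl36, Rps28 and Rps29, which were low in AngII+VAL, had lengths of 383, 385 and 390.1 bases, while Rpl39 had 612 and Rpl37 had 820.0, near the median. The part of transcript length in these results was not tested.

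**Figure D2:**
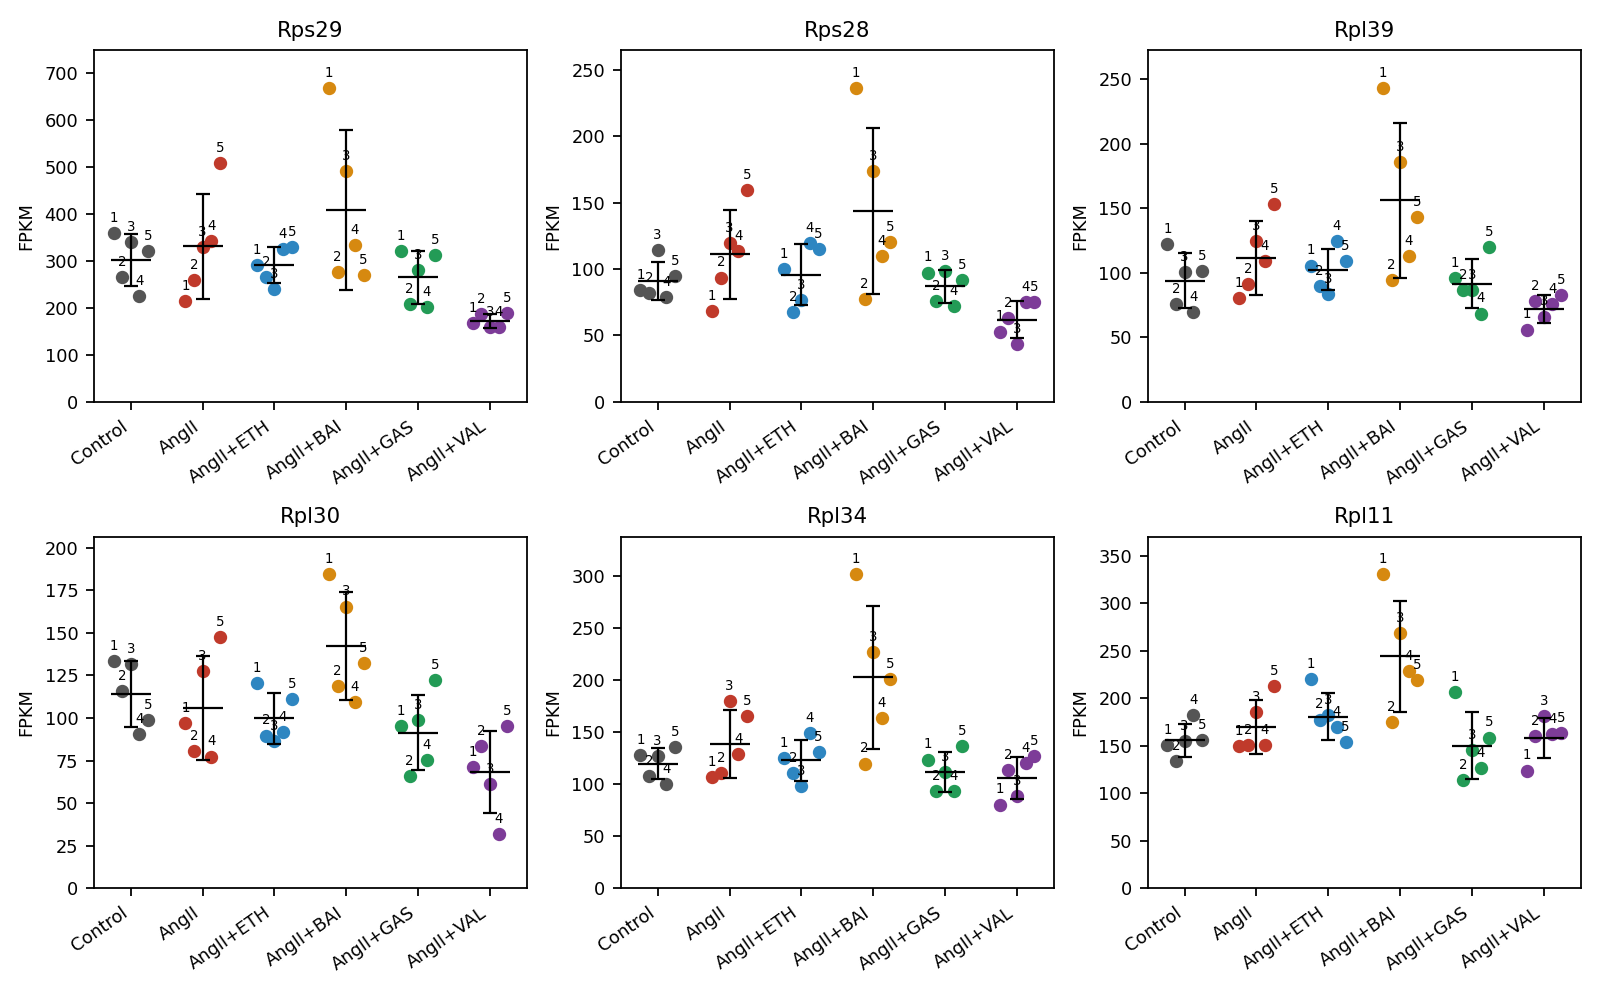
FPKM of Rps29, Rps28, Rpl39, Rpl30, Rpl34 and Rpl11 in each library by group, 1 panel per gene, with points for 5 libraries and the mean ± SD. Rps29 lies between 159 and 189 FPKM in AngII+VAL, below all other libraries, and AngII+BAI library 1 is the highest point in every panel.

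AngII+BAI had the highest group mean of the members and the widest spread, 7.31 ± 0.56 in mean log2(FPKM + 1) per library (SD, n = 5). Against AngII the median change was 0.37, beside -0.01 for all genes, with 81 of 84 above 0, beside 48.7% of all genes. The large subunit (median 0.36) and the small subunit (0.38) had close medians. No member passed the threshold, against 0.0151% of all genes higher and 0.318% lower. At an unadjusted p under 0.05, 16 of 84 were higher and 0 lower (19.0% against 5.35% of all genes higher, and 0% against 9.29% lower). Without AngII+BAI library 1 the median was 0.17, and without libraries 1 and 3 together it was 0.02 with 51 of 84 above 0. The median of all genes tested was then -0.055. The members' median was 0.31 without libraries 3 and 5, the ones low in smooth muscle markers. Leaving out library 2 brought 1 member, Rpsa, past the threshold, and the share of all genes that passed then is not given here.

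Against Control the median change in AngII+BAI was higher than against AngII, for the members and for all genes alike. The median was 0.47, beside 0.09 for all genes, and 83 of 84 were above 0, beside 59.3% of all genes. Without adjustment 50 were higher at p under 0.05 (59.5% against 13.7% of all genes). None passed the adjusted threshold, against 1.10% of all genes higher and 0.333% lower, and the smallest adjusted p was 0.0516, for Rpl11. Without AngII+BAI library 2 or library 4, both low in ribosomal share, 30 and 11 members passed. The shares of all genes that passed without these libraries are not given here, so the counts are not read as particular to the members. Without libraries 1 and 3 the median was 0.15, beside 0.04, with 68 of 84 above 0. Rpl11, which with Rpl5 and the 5S RNA forms the particle that binds Mdm2 when ribosome assembly is disturbed, was at 331, 175, 269, 228 and 219 FPKM in AngII+BAI. It was at 151, 133, 155, 182 and 156 FPKM in Control and 150.0, 151, 185, 151 and 213 FPKM in AngII. AngII+BAI library 2 overlapped the range of both groups. The log2 fold change was 0.62 ± 0.16 (adjusted p = 0.0516) against Control and 0.50 ± 0.16 (adjusted p = 0.157) against AngII. Rpl5 itself was at 177 ± 60.7 FPKM against 122 ± 18.1 FPKM in Control (SD, n = 5 each; log2 fold change 0.48 ± 0.19 (SE), adjusted p = 0.167).

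Rpsa, a small subunit protein also known as the laminin receptor, was at 686, 235, 588, 287 and 411 FPKM in AngII+BAI and 202, 225, 276, 258 and 346 FPKM in AngII. The overlap came from AngII+BAI libraries 2 and 4 (log2 fold change 0.66 ± 0.22 (SE), adjusted p = 0.158). Rpl12, at the base of the P stalk, was at 277, 102, 219, 109.8 and 193 against 102, 96.8, 154, 88.5 and 119 FPKM, again with overlap (log2 fold change 0.60 ± 0.22 (SE), adjusted p = 0.215). Rps6, which encodes a substrate of S6 kinase, was at 649, 278, 517, 303 and 446 FPKM in AngII+BAI and 309, 296, 383, 304 and 379 FPKM in AngII (log2 fold change 0.33 ± 0.18 (SE), adjusted p = 0.41). It too was high in libraries 1, 3 and 5 and not in libraries 2 and 4. Rpl38, which takes part in translating Hox mRNAs, was at 392, 90.9, 229, 135 and 150.1 FPKM, high in libraries 1 and 3 only (log2 fold change 0.30 ± 0.27 (SE), adjusted p = 0.605). The 3 members on the lower side were Rpl18 with -0.23 ± 0.37 (adjusted p = 0.801), Rps27rt with -0.09 ± 0.57 (adjusted p = 0.95) and Rps27a with -0.12 ± 0.80 (adjusted p = 0.955).

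Members fixed by role followed library 1 as well. Rps3, at the mRNA entry, was there at 1.74 times its median over the other libraries, Rps19, mutated in Diamond-Blackfan anaemia, at 2.44 times and Rps4x at 2.57 times. In the large subunit Rpl10, which joins late in assembly, was at 2.05 times, Rpl10a at 1.87 times and Rpl13a at 2.86 times. Rpl7l1, the assembly factor, varied least of all members, with an SD of 0.19 on the log2 scale over 30 libraries, and was at 1.48 times. Rps19bp1 was at 2.34 times.

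**Figure D3:**
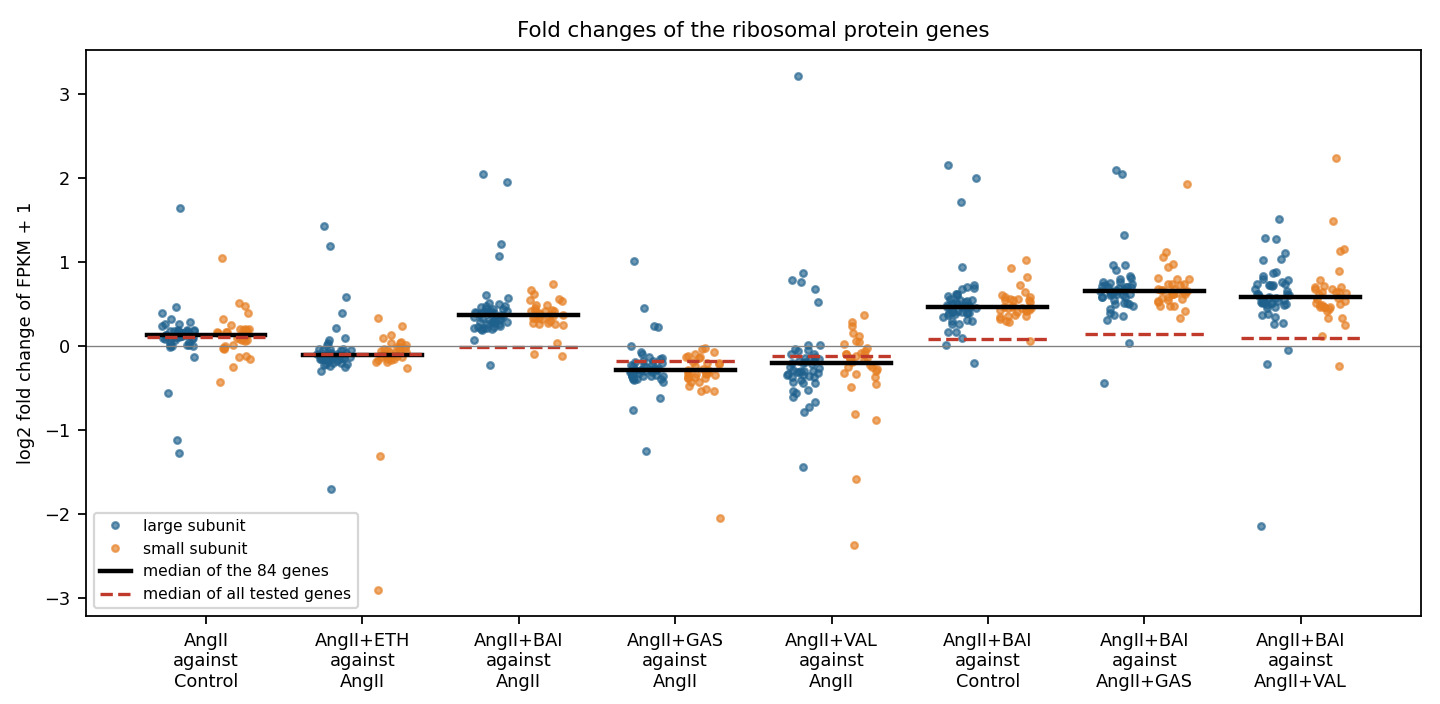
Log2 fold change of each of the 84 ribosomal protein genes in 8 comparisons, on the log2(FPKM + 1) scale, with large and small subunit genes in 2 colours, the median of the 84 as a black line and the median of all tested genes as a dashed red line. The black line lies above the red one in the comparisons of AngII+BAI with other groups (0.37 against -0.01 beside AngII) and close to it in AngII against Control (0.13 against 0.11).

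The compounds were also compared with each other, in 6 pairs. At matched dose and time, baicalin against gastrodin gave a median of 0.66, beside 0.14 for all genes, with 83 of 84 above 0, beside 65.2% of all genes. None was called, as for all genes (0% in either direction). Before adjustment 69 were higher at p under 0.05 (82.1% against 16.9% of all genes). Ethoxysanguinarine against baicalin gave -0.46, beside -0.07, with 48 members lower at an unadjusted p under 0.05 (57.1% against 9.60%) and 0 called. Ethoxysanguinarine against gastrodin called 0 members, with 2 higher (2.38% against 2.98% of all genes) and 1 lower (1.19% against 0.915%) at an unadjusted p under 0.05, and a median of 0.18 beside 0.08 for all genes. With valsartan, given at another dose, ethoxysanguinarine and gastrodin stood at medians of 0.11 and -0.07, with 0 members called (0% of all genes). At an unadjusted p under 0.05, 5 and 3 members were higher (2.34% and 2.06% of all genes) and 2 and 2 lower (2.05% and 3.23%). Without AngII+BAI library 2, without library 4 or without AngII+GAS library 5, 59, 48 and 42 members passed in baicalin against gastrodin, and 9 passed with unlisted transcripts set to 0. The shares of all genes that passed in these settings are not given here, so the counts are not read as particular to the members. An adjusted p above the threshold does not show that these compounds acted alike. The F test over all 6 groups called 0 of 84 and 0% of all genes, with 48 members at an unadjusted p under 0.05 (57.1% against 15.8%) and the smallest adjusted p, 0.128, at Rps29.

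AngII+BAI against AngII+VAL was the only one of the 15 pairs in which members passed the threshold. The doses of baicalin and valsartan differ, so the groups are compared as given. Here 5 of 84 were called higher and 0 lower (5.95% against 0.537% of all genes higher, and 0.0605% lower), and 64 were higher at an unadjusted p under 0.05 (76.2% against 12.9%). The median was 0.58, beside 0.09. The 5 were taken up after their values were seen. Rps29 had a log2 fold change of 1.15 ± 0.23 (adjusted p = 0.0302), with means of 408 ± 171 and 172 ± 14.9 FPKM (SD, n = 5 each). Rps28, another small protein of the 40S head, was at 237, 77.7, 174, 109.8 and 120.1 FPKM in AngII+BAI and 52.9, 63.0, 43.2, 74.97 and 75.4 FPKM in AngII+VAL (log2 fold change 1.13 ± 0.24 (SE), adjusted p = 0.0319). Rpl39, the short protein that lines the exit tunnel, was at 243, 94.6, 186, 113 and 143 FPKM in AngII+BAI and at 55.99, 78.2, 66.1, 75.7 and 82.8 FPKM in AngII+VAL (log2 fold change 1.04 ± 0.22 (SE), adjusted p = 0.0302). None of these 3 overlapped between the groups. Rpl30 was at 184, 119, 165, 109 and 132 FPKM in AngII+BAI and at 71.1, 83.3, 61.1, 32.0 and 95.1 FPKM in AngII+VAL, also without overlap (log2 fold change 1.10 ± 0.23 (SE), adjusted p = 0.0316). With Rps21, which was not called, 5 members were higher without overlap (5.95%, against 2% of all genes). Rpl34 was at 302, 119.7, 227, 164 and 201 FPKM in AngII+BAI and at 80.3, 114, 88.8, 120.0 and 127 FPKM in AngII+VAL and overlapped (log2 fold change 0.88 ± 0.20 (SE), adjusted p = 0.0354). For Rps29 and Rps28 the AngII+VAL libraries also lay below Control, whose lowest values were 224 and 79.3 FPKM. For Rpl39 they overlapped Control, whose lowest value was 69.8 FPKM. No member passed the threshold in AngII+VAL against Control (smallest adjusted p = 0.795). The same 5 genes passed with quantile normalization, with TMM factors, after rescaling without mitochondrial transcripts, with a pseudocount of 0.1 and without a filter. None passed without AngII+BAI library 1, without library 3, without any of AngII+VAL libraries 1 to 4, with weights per library, or in a fit of these groups alone. With the named pseudogene copies added to their genes, as described further on, Rpl34 no longer passed (log2 fold change 0.73, adjusted p = 0.0735). Rpl30, Rpl39, Rps28 and Rps29 still passed then. The adjusted p of Rps29 ranged from 0.00677 to 0.375 over the alternatives.

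The balance of the subunits differed between groups by less than the spread between libraries. Small subunit genes exceeded large subunit genes in mean log2(FPKM + 1) by 0.42 ± 0.13 in Control and 0.44 ± 0.15 in AngII. The difference was 0.33 ± 0.18 in AngII+ETH, 0.38 ± 0.10 in AngII+BAI, 0.36 ± 0.14 in AngII+GAS and 0.33 ± 0.10 in AngII+VAL (SD, n = 5 each). Single libraries ran from 0.15 to 0.66 and all groups overlapped. With the named pseudogene copies, described further on, added to their genes, the group means were 0.10 to 0.19, smaller than without them. The summed FPKM of the large subunit was 1.22 to 1.44 times that of the small subunit, with group means from 1.30 to 1.37.

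The members varied together across libraries, as a description of 30 libraries of similar depth whose preparation is not described beyond the kit. The median Pearson correlation over 3486 pairs of members was 0.71, and 0.60 over the 29 libraries without AngII+BAI library 1. For 54 of 84 members the correlation with the mean of the others was above 0.8, and for 12 it was below 0.5. The non-members whose profile was most like the mean of the members, leaving out gene models with no descriptive name and copies, were Fau (r = 0.96), which encodes another ribosomal protein, Snrpd1 (0.96), a core protein of the splicing machinery, and Rtraf, Frg1 and Cfdp1 (each 0.95). Snrpd2, the elongation factor subunit Eef1b2 and Sf3a3 followed at 0.93 each. After them came Eif4a3, Utp3, Rer1, Mrpl52 and the elongation factor subunit Eef1g at 0.92 each. The median within-group SD of log2(FPKM + 1) was 0.34 for members and 0.39 for all genes.

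Rpl3l differed from the other members in where it was high. In striated muscle Rpl3l takes the place of Rpl3, a core protein near the peptidyl transferase centre. It was at 28.3, 17.2, 6.03, 15.6 and 7.29 FPKM in AngII+VAL and 0.526, 2.27, 0.345, 0.112 and 0 FPKM in AngII, without overlap (log2 fold change 3.22 ± 0.83 (SE), adjusted p = 0.141). Control was at 10.2, 34.4, 0.152, 0.0749 and 0.281 FPKM and AngII+BAI at 2.21, 0.369, 17.4, 0.479 and 1.57 FPKM, so that single libraries of other groups reached the level of AngII+VAL. Skeletal muscle markers moved with it. Of 14 such markers 12 had a value, and their mean log2(FPKM + 1) was 5.23 to 7.16 in 9 libraries and 0.70 to 4.15 in the other 21. The 9 were all AngII+VAL libraries, Control libraries 1 and 2, AngII+ETH library 1 and AngII+BAI library 3. Rpl3l was at 6.03 to 34.4 FPKM in these 9, with a median of 15.6, and at 0 to 2.60 FPKM in the other 21, with a median of 0.369. The part of skeletal muscle in this result was not tested. Rpl3 was at 92.8 to 329.6 FPKM over all libraries.

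**Figure D4:**
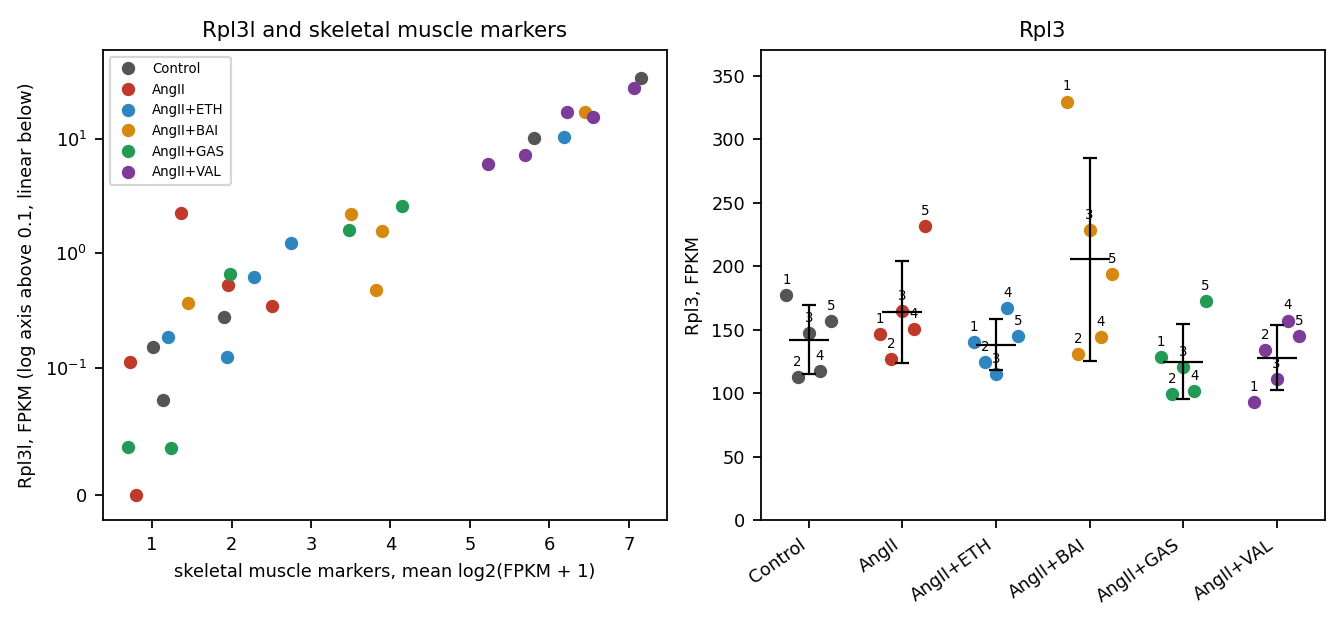
Left, Rpl3l FPKM (symmetric log axis) of each library against the mean log2(FPKM + 1) of 12 skeletal muscle markers. Right, Rpl3 FPKM by group with the mean ± SD of 5 libraries. The 9 libraries with a marker level above 5 hold every Rpl3l value of 6.03 FPKM or more, and Rpl3 lies between 92.8 and 329.6 FPKM.

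Rpl3l was 0% to 23.4% of its sum with Rpl3, and the shares of the other paralogs varied to different extents. Rpl7l1 made up 5.05% to 10.4% of the sum with Rpl7, and Rps27l, the paralog of Rps27, 13.7% to 65.1% of the sum with Rps27. That sum leaves out Rps27rt, which traded values with Rps27 as given below, so the range of Rps27l is uncertain. Rpl36al made up 40.7% to 55.7% of the sum with Rpl36a, and Rpl22l1 27.5% to 52.7% of the sum with Rpl22. Rpl36a and Rpl36al averaged 78.2 and 77.8 FPKM, and Rpl22 and Rpl22l1 48.8 and 38.7 FPKM. Rps27 and its retrogene copy Rps27rt traded values between libraries. Rps27rt took 6.28% to 78.2% of their sum, and the coefficient of variation over 30 libraries was 40.04% for Rps27, 64.2% for Rps27rt and 29.3% for the sum. In AngII+GAS library 4, for example, Rps27 was at 41.0 and Rps27rt at 147 FPKM, and in library 1 they were at 253 and 31.3 FPKM. Of the 50-base words in the main transcript of Rps27, 98.6% were also found in transcripts of other genes, so reads of that length cannot place most of that transcript. Over all 84 members the median share was 53.5%, from 0% for Rpl3l.

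For several members, part of the FPKM was listed under processed pseudogenes, which are reverse-transcribed copies of the mRNAs. Whether those reads came from the copies or from the genes was not tested. The files listed 94 copies named after 43 of the members, and these held 10.7% to 11.8% of the FPKM of members and copies together in every library. In 6 members these named copies held over 50% of the sum. Genes of similar sequence under other names were not counted as copies. Gm9794, for example, held 32.1% of the 50-base words of the main Rpl23 transcript. It averaged 140 FPKM, beside 55.8 FPKM for Rpl23. Rpl17 alone was at 0.083 to 1.82 FPKM in 27 libraries and at 6.79, 62.2 and 173 FPKM in AngII libraries 3 and 4 and AngII+BAI library 1. With its 5 copies it was at 199 to 729 FPKM, its SD on the log2 scale was 0.37 rather than 1.67, and its correlation with the other members went from 0.52 to 0.96. Rpl7a went from an SD of 1.76 to 0.32 with its 4 copies, and Rps27a from 1.65 to 0.62 with its single copy. Over the 43 members the SD was lower with copies in 35. The annotated coding transcript of Rps27a was at 0 in 22 libraries. Rpl41, the shortest ribosomal protein, was at 0 FPKM in 3 libraries and at 175 FPKM in AngII+BAI library 1. The members with an SD above 1 were 7, 5 of the large and 2 of the small subunit, and among them Rpl17, Rpl7a, Rpl41, Rpl3l and Rps27a were the most variable. Single values of these genes, the copies and genes overlapping on the other strand are uncertain, and no change in them is read as a change in the gene.

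**Figure D5:**
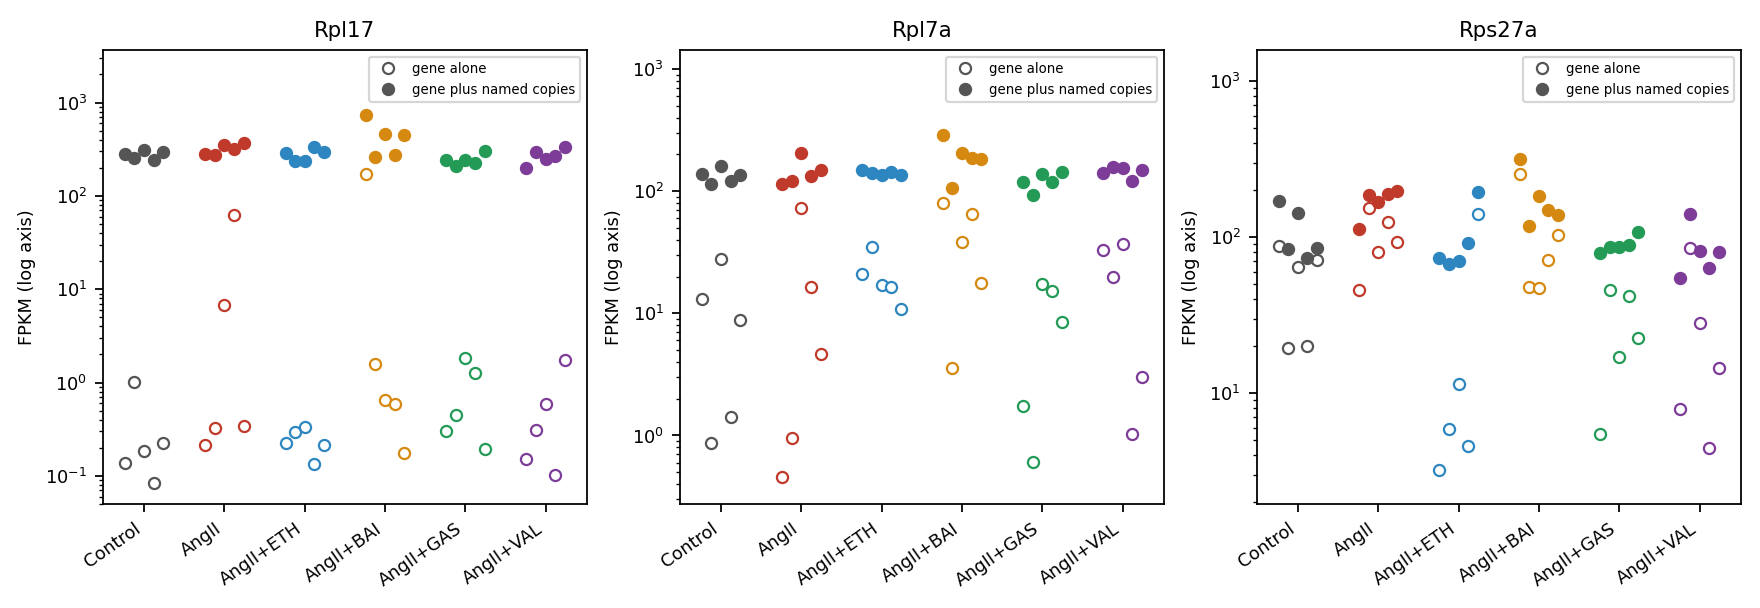
FPKM of Rpl17, Rpl7a and Rps27a in each library by group on a log axis, for the gene alone (open points) and with its named pseudogene copies added (filled points). Alone the values run from 0.083 to 173 FPKM for Rpl17 and from 0.457 to 80.0 FPKM for Rpl7a, and with copies they run from 199 to 729 FPKM and from 93.2 to 286 FPKM.

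Other genes of the pathway were read from lists chosen by function. Fau and Rack1, ribosomal proteins outside the naming rule, had log2 fold changes in AngII+BAI against AngII of 0.37 and 0.31, beside the members' median of 0.37, and neither passed the threshold. Of 13 elongation and termination factors, limma called 0 in AngII against Control and 0 in AngII+BAI against AngII, with 1 and 3 higher at an unadjusted p under 0.05, and their medians were 0.05 and 0.18. Over all genes, 9.51% and 5.35% were higher and 1.69% and 9.29% lower at that p in these 2 comparisons, and the medians were 0.11 and -0.01. Of 38 initiation factors 0 were called in both, with medians of 0.05 and 0.12, 2 and 3 higher and 1 and 0 lower at an unadjusted p under 0.05. In AngII+BAI against Control 2 of the 38 passed, 1 higher and 1 lower, beside 1.10% and 0.333% of all genes. Eif2s2, a subunit of the factor that brings the initiator tRNA, rose by 0.47 on the log2 scale (adjusted p = 0.0399), and Eif4ebp2, a repressor of cap-dependent initiation and target of mTORC1, fell by 0.39 (adjusted p = 0.0445). The adjusted p of Eif2s2 ran from 0.00641 to 0.384 over the alternatives and that of Eif4ebp2 from 0.0208 to 0.366. Eif2s2 no longer passed without any 1 of the Control libraries or of AngII+BAI libraries 1, 3 and 5. The call for Eif4ebp2 was lost without any 1 of the same libraries other than Control library 5. Both calls were also lost without AngII+BAI libraries 3 and 5 or 1 and 3 together, after rescaling without mitochondrial transcripts (adjusted p = 0.0926 and 0.0573), with weights per library (0.272 and 0.178) and in a fit of the 2 groups alone (0.375 and 0.366), and that for Eif2s2 with quantile normalization (0.0738).

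Among 58 tested genes of ribosome assembly 0 passed in AngII against Control and in AngII+BAI against AngII, where 1 and 10 were higher at an unadjusted p under 0.05, beside 9.51% and 5.35% of all genes, and the medians were 0.07 and 0.17. Nhp2, a protein of the snoRNPs that guide pseudouridylation, had a change of 0.72 ± 0.19 against AngII (adjusted p = 0.0871). Of 19 tested genes of mTORC1, S6 kinase and Myc control 0 passed, with medians of 0.20 and 0.13, with 1 gene higher in each and 0 and 1 lower at an unadjusted p under 0.05, beside the shares of all genes given above. The 78 proteins of the mitochondrial ribosome are a separate set encoded in the nucleus. Their median in AngII against Control was -0.15 with 21 of 78 above 0, beside 0.13 and 69 of 84 for the members. In AngII+BAI against AngII it was 0.18 with 67 of 78 above 0. None of the 78 passed in either comparison, with 2 lower in the first (beside 1.69% of all genes) and 4 higher in the second (beside 5.35%) at an unadjusted p under 0.05.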

How the data were processed

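The authors deposited FPKM per transcript for each library. No header names the unit, which was inferred from the values themselves. The build was mm10 and limma was used, per the submitters' processing notes, with no version. For the aligner, the quantifier and its use of strand, the entry is: not given in the sources used here. Transcript lists differed by group. Together they held 49085 transcripts, and 39267 were listed for all 30 libraries. Of 33677 Ensembl transcripts, 33638 matched GENCODE M21. The 27797 annotated transcripts in all lists were summed to 14379 genes. Other transcripts were not used in these sums.

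The filter kept 13223 genes that reached 1 FPKM in 5 or more libraries. With limma 3.58.1 in R 4.3.3, log2(FPKM + 1) was fitted over all 30 libraries with 1 mean per group, a trended and robust variance (24 residual degrees of freedom), an F test over the 6 groups and 15 comparisons of pairs. P-values were adjusted over all genes by Benjamini and Hochberg, at a threshold of 0.05. Fold changes on this scale understate the change of low genes. The fit was tested on simulated data. Other steps used Python 3.11.15 with numpy 2.4.6 and pandas 2.3.3.

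Depth was read from low values, of which 98.8% to 99.7% were whole numbers of reads within 0.1 read. For a 1 kb transcript a floor of 3 reads was 0.0372 to 0.0429 FPKM and covers counting error only. Promoters and their coordinates came from RefSeq tables of GRCm38.p6.

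Members, lists and alternatives were chosen with earlier results of these data known. Genes named were those with the smallest p in each direction of AngII against Control and of each compound against AngII (3 each), those past the threshold in the F test or in comparisons with Control or AngII (none was), the 3 highest and 3 lowest of each subunit, the 5 with the largest SD, and a set by role. The 5 past the threshold in AngII+BAI against AngII+VAL were added after their values were seen. Alternatives changed the pseudocount (0.1), the filter, the scaling, the treatment of unlisted transcripts, the weights, the groups fitted and single libraries. The additions of copies to their genes and the joint removal of AngII+BAI libraries 1 and 3 were chosen after seeing the data.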

Additional observations from a re-analysis of the deposited data

Results flagged for a closer look

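Libraries far from the other 4 of their group were looked for in 18 members and 4 summary measures, 132 groups in all, by Dixon's criterion at the 95% level. It marked 13, and chance alone marks about 1 group in 20. Most concern members with near-identical copies. Rpl17 was at 1.02 FPKM in Control library 2 (others 0.0830 to 0.223), at 62.2 FPKM in AngII library 4 (others 0.213 to 6.79) and at 173 FPKM in AngII+BAI library 1 (others 0.176 to 1.58). Rps27a was at 142 FPKM in AngII+ETH library 5 (others 3.25 to 11.5) and at 254 FPKM in AngII+BAI library 1 (others 47.3 to 103). Rps27rt was at 90.1 FPKM in AngII+VAL library 4 (others 16.6 to 29.5), and Rps27 at 313 FPKM in AngII+ETH library 4 (others 222 to 240.0). Rpl26 was at 321 FPKM in AngII library 4 (others 95.1 to 109).

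Rpl3l was at 2.27 FPKM in AngII library 2 (others 0 to 0.526), at 10.45 FPKM in AngII+ETH library 1 (others 0.124 to 1.24) and at 17.4 FPKM in AngII+BAI library 3 (others 0.369 to 2.21). The last 2 of these libraries have a high level of skeletal muscle markers. Rps7 was at 205 FPKM in AngII+GAS library 3 (others 150.3 to 162). The difference in mean log2(FPKM + 1) between small and large subunit genes was 0.64 in AngII+ETH library 5 (others 0.21 to 0.33).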

How the results depend on the processing

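No paired analysis was possible because the labels give the groups no shared replicate numbers. The median change of the members moved by less than the larger SD of the groups compared in 295 of 295 values. For pairs with AngII+BAI that SD is 0.56, and the median without AngII+BAI libraries 1 and 3 was 0.02 against AngII (0.37 with them) and 0.15 against Control (0.47 with them), both moves above the pooled within-group SD of 0.29. It changed sign, near 0, for AngII+ETH against Control (-0.034 to 0.077 with single libraries left out, -0.023 with TMM factors) and for AngII+GAS against AngII+VAL (0.001 without AngII+GAS library 2). In the main fit the count of members past the threshold was 0 except for AngII+BAI against AngII+VAL. A count of 0 that stayed 0 was taken as unchanged. On that rule the count stayed within 1.5 times in 311 of 335. In the remaining ones, the count for AngII+BAI against AngII+VAL (5) was 0 with array weights, in a fit of the 2 groups alone and without AngII+BAI libraries 1 and 3 together, and 1 without libraries 3 and 5. It ran from 0 to 46 when single libraries were left out. With single libraries left out, the counts ran from 0 to 1 for AngII+BAI against AngII, 0 to 30 for AngII+BAI against Control, 0 to 5 for AngII+ETH against AngII+BAI, 0 to 59 for AngII+BAI against AngII+GAS and 0 to 4 for the F test. The highest of each came without AngII+BAI library 2. With unlisted transcripts set to 0 the count was 1 for AngII+BAI against Control and 9 for AngII+BAI against AngII+GAS. For these alternatives the shares of all genes that passed are not given here, so the counts are not read as particular to the members. A fit of the 2 groups alone gave 1 for AngII+VAL against AngII (Rpl3l), and array weights gave 1 for AngII+VAL against Control (Rps29). The cause was not tested. With copies added, the small minus large subunit difference was 0.17 in Control, 0.19 in AngII, 0.14 in AngII+ETH, 0.15 in AngII+BAI, 0.15 in AngII+GAS and 0.10 in AngII+VAL.

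Among named members 621 values kept their side, 50 no longer passed, 2 newly passed and 14 changed sign. Those with changed sign were all far from the threshold. In AngII+BAI against AngII, Rpl18 was at 0.048 without AngII library 3 and ran from -0.43 to 0.048 with single libraries left out. Rps27a was at 0.19 with unlisted transcripts set to 0, at 0.021 with copies added and at 0.057 without AngII+BAI libraries 3 and 5, and ran from -0.52 to 0.083 with single libraries left out. Rps27rt ran from -0.46 to 0.14 with single libraries left out. In AngII+GAS against AngII, Rpl21 was at -0.18 with copies added and Rpl29 ran from -0.25 to 0.91 with single libraries left out. In AngII+ETH against AngII, Rpl7a was at -0.011 with copies added. Depth limits only members near the floor, such as Rpl3l and Rpl17.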

Other observations

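The transcripts of the members differ in how far their sequence sets them apart from other genes, and this was measured by the share of 50-base words of the main coding transcript that also occur in transcripts of other genes. The share was at least 50% in 47 members and lower in 37. Rps27 stood at 98.6%, Rps27rt at 91.1%, Rpl7a at 81.2%, Rpl17 at 78.7%, Rps27a at 71.9% and Rpl26 at 71.3%. Among the 5 genes past the threshold in AngII+BAI against AngII+VAL it was 16.5% for Rpl39, 35.8% for Rps29, 50.6% for Rpl34, 52.3% for Rps28 and 76.4% for Rpl30. The median SD of log2(FPKM + 1) over 30 libraries was 0.38 in the 47 members and 0.39 in the 37. Of the 5 members with the largest SD, Rpl7a, Rpl17 and Rps27a were among the 47, while Rpl41 (42.0%) and Rpl3l (0%) were among the 37.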
